A study of Mus musculus with 8 samples.

Results

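Transcripts of 9 genes of mitophagy and autophagy were examined in mouse primordial follicles, namely Pink1, Bnip3, Bnip3l, Fundc1, Sqstm1, Map1lc3b, Becn1, Atg5 and Atg7. They were chosen by symbol, for their roles, from the 26586 genes of the deposited count table, and all 9 were found there. The follicles were isolated on postnatal day 3 from ovaries of mice with a C57Bl/6 x CBA background. In 4 samples the mice were the third generation descended from oocytes that had received extra autologous mitochondria at fertilisation (mito-supplemented), and 4 samples were controls. Each sample was total RNA of many follicles picked from digested ovary pieces, amplified as cDNA before sequencing, so that the values are averages over oocytes, pregranulosa cells and any other cells collected with them. The comparison asked whether transcripts of this pathway differed in the ovarian reserve of the mito-supplemented line.

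Autophagy encloses cytoplasm in a double membrane and delivers it to the lysosome, and mitophagy is the same route applied to mitochondria. In one branch the kinase PINK1 accumulates on damaged mitochondria and promotes their tagging with ubiquitin chains, which are read by adaptors such as SQSTM1 (p62). In the other branch, receptors in the outer mitochondrial membrane, BNIP3, BNIP3L (NIX) and FUNDC1, bind ATG8 proteins such as MAP1LC3B (LC3B) directly. Mice that lack Atg7, or carry a single working copy of Becn1, are known to have fewer germ cells in the newborn ovary, and BNIP3L is known for the clearance of mitochondria from maturing red cells.

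The promoters are shown first for the genes that hold the E-box CACGTG, the core of the sites bound by TFEB, a transcription factor of lysosome and autophagy genes, because Tfeb had the largest log2 fold change among the other autophagy genes described below. RefSeq promoter windows on GRCm38.p6 were found for 7 of the 9 genes (Pink1, Atg7, Bnip3, Map1lc3b, Atg5, Sqstm1 and Fundc1), and not for Bnip3l and Becn1. The letters CACGTG, which read the same on both strands, were searched in the 250 bases before each start. They occurred once each in Bnip3, Atg5 and Atg7, and in 6.02% of the 32851 windows of the whole table. The match lies 108, 14 and 132 bases before the RefSeq start of Bnip3, Atg5 and Atg7. The stretches below run 5′ to 3′ on the strand of the gene, with up to 30 bases on each side that lie before the start, and the capitals mark the E-box. None of the 3 stretches overlaps a GENCODE M21 exon, and that of Atg7 lies within the gene, since GENCODE has longer transcripts that start upstream of it.
Bnip3 (chr7:138909579-138909644, minus strand): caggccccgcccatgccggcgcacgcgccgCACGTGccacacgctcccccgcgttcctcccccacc
Atg5 (chr10:44268295-44268338, plus strand): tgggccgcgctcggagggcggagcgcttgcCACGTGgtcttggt
Atg7 (chr6:114670934-114670999, plus strand): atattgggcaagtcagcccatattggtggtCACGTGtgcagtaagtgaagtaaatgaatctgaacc
A match of letters is a description and not a binding site.

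The values are reads counted on genes by the authors, and are given here as CPM (counts scaled to a common library size) after TMM normalization in edgeR, which scales out differences in depth and composition. Control replicates 1 to 4 had library totals of 17658559, 13917412, 18219362 and 10370045 counts. Mito-supplemented replicates 1 to 4 had 19760763, 13370911, 16116434 and 13276462 counts. A variable part lay on the rRNA genes listed as Rnr1, Rnr2, Rn45s and Rn18s, 75.3% in control replicate 4 against 20.2% to 45.6% in the other libraries. Control replicate 4 therefore held 2559876 counts on other genes, and its low values are the least precise. Its TMM factor was 0.489, against 0.909 to 1.39 in the other libraries. Scaling by library size only leaves this factor out, which lowers the values of control replicate 4 relative to TMM.

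The libraries also differed in their cell type markers, within each group as well as between them. Of 10 red cell markers in the table, 7 were tested, and the summed level of the 10 was 31.7, 7970.3, 5212.8 and 81.9 CPM in control replicates 1 to 4 and 7990.2, 133, 41.8 and 42.9 CPM in mito-supplemented replicates 1 to 4. Control replicates 2 and 3 and mito-supplemented replicate 1 thus stood far above the other 5 libraries, and were the only ones with over 100 CPM of Slc4a1, an anion exchanger of the red cell membrane. The most abundant red cell marker was spectrin, listed as Spna1, while the globin gene Hba-a1 had 0 counts in every library but mito-supplemented replicate 1, which had 5. The red cell share of the counts outside rRNA genes was 0.524% ± 0.613 over controls and 0.272% ± 0.515 over mito-supplemented libraries (SD, n = 4 each; exact permutation test, two-sided, p = 0.629, where the smallest p possible is 0.0286).

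Oocyte markers were found in all 8 libraries, in keeping with the label, but their summed level over 13 genes was 2017.9 CPM in control replicate 1 and between 75.9 and 457 CPM in the others. All 11 oocyte markers tested had lower fitted levels in mito-supplemented samples, with a median log2 fold change of -1.80. In the quasi-likelihood test described below 0 passed an adjusted p of 0.05, where 0 of all genes did. The lower levels rested on control replicate 1, without which 7 oocyte markers were higher and 4 lower, with a median of 0.22. Kit, the most abundant of them, was at 629, 91.7, 45.4 and 92.0 CPM in control replicates and at 74.7, 30.8, 84.7 and 16.2 CPM in mito-supplemented replicates. Pregranulosa markers, led by Wt1, summed to 287, 167, 294 and 832 CPM in control replicates and 326, 816, 710.2 and 1035.9 CPM in mito-supplemented replicates, with 8 of 10 genes tested higher. Foxl2, a defining gene of granulosa cells, was present in each library, from 7.62 to 61.4 CPM. In a bulk sample, fewer cells of a type and less RNA per cell cannot be told apart, which holds for every gene below.

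Markers of the surrounding tissue were lowest in control replicates 1 to 3. Stroma markers, led by Col3a1, summed to 340.3, 454, 661 and 2271 CPM in control replicates and 969, 1003, 2574 and 2219 CPM in mito-supplemented replicates, with 9 of 9 genes higher. Surface epithelium markers, led by Lgr5, summed to 95.8, 53.0, 39.7 and 396 CPM in control replicates and 373, 971, 408 and 737 CPM in mito-supplemented replicates, with 9 of 9 genes tested higher. Endothelial markers, led by Kdr, summed to 25.5, 28.8, 42.1 and 212 CPM in control replicates and 98.4, 226, 173 and 193 CPM in mito-supplemented replicates, with 5 of 7 genes tested higher. In the likelihood ratio test 1 surface epithelium marker (Upk1b, adjusted p = 0.00085) and 1 endothelial marker (Esam, adjusted p = 0.0123) were called, both higher. Of all 13873 genes tested, 58 (0.418%) were called. At an unadjusted quasi-likelihood p under 0.05 there were 6 of 9 surface epithelium markers, all higher, 1 of 7 endothelial and 0 of 9 stroma markers, beside 7.71% of all genes. The groups did not overlap for 2, 1 and 0 of these, beside 5.03% of all genes. Immune markers, led by Lyz2, were highest in the red cell-rich libraries, at 138 and 121 CPM in control replicates 2 and 3 and 755 CPM in mito-supplemented replicate 1, against 8.55 to 21.9 CPM in the other 5. C1qb was at 0 in all 8 libraries. The part of these cell types in the differences below was not tested.

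**Figure D1:**
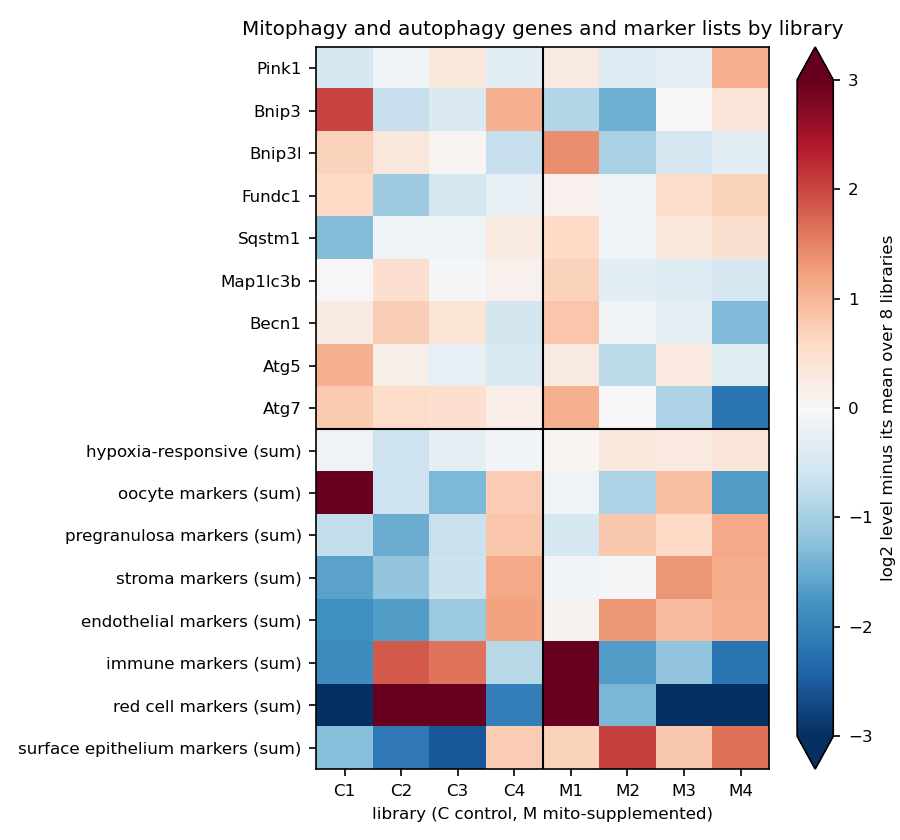
Level of each of the 9 genes (upper rows, log2 CPM with a prior count of 2) and summed level of each marker list (lower rows, log2 of the summed CPM) in the 8 libraries, each minus its mean over the libraries, with the colour scale ending at 3 on either side. Control replicates 2 and 3 and mito-supplemented replicate 1 share the high red cell and immune rows, and control replicate 1 has the high oocyte row.

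No difference between the groups was called for any of the 9 genes. The quasi-likelihood test of edgeR was run on 13873 genes, with p-values adjusted by the Benjamini-Hochberg method, and 0 of the 9 had an adjusted p under 0.05, where 0 of all genes (0%) did. In the likelihood ratio test, 0 of the 9 were called, against 58 of all genes (0.418%), and DESeq2 called 0 of the 9 against 141 (1.02%). Limma-voom called 0 of the 9 against 0 of all genes, and with sample quality weights 0 of the 9 against 2913 (21%). At an unadjusted p under 0.05 there were 0 of the 9 and 1069 of all genes (7.71%), of which 736 were higher and 333 lower. For 0 of the 9 did the control and mito-supplemented libraries fail to overlap, against 698 of all genes (5.03%). The fitted level was higher in mito-supplemented samples for 4 genes (Pink1, Bnip3l, Fundc1 and Sqstm1) and lower for 5 (Bnip3, Map1lc3b, Becn1, Atg5 and Atg7), and of these Bnip3l and Map1lc3b changed sign with another scaling of the libraries. The median log2 fold change of the 9 was -0.21. That of all genes tested was -0.10, with 6225 higher and 7648 lower. Scaled by library size only, the 9 had a median of 0.07 and all genes tested one of 0.17.

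**Figure D2:**
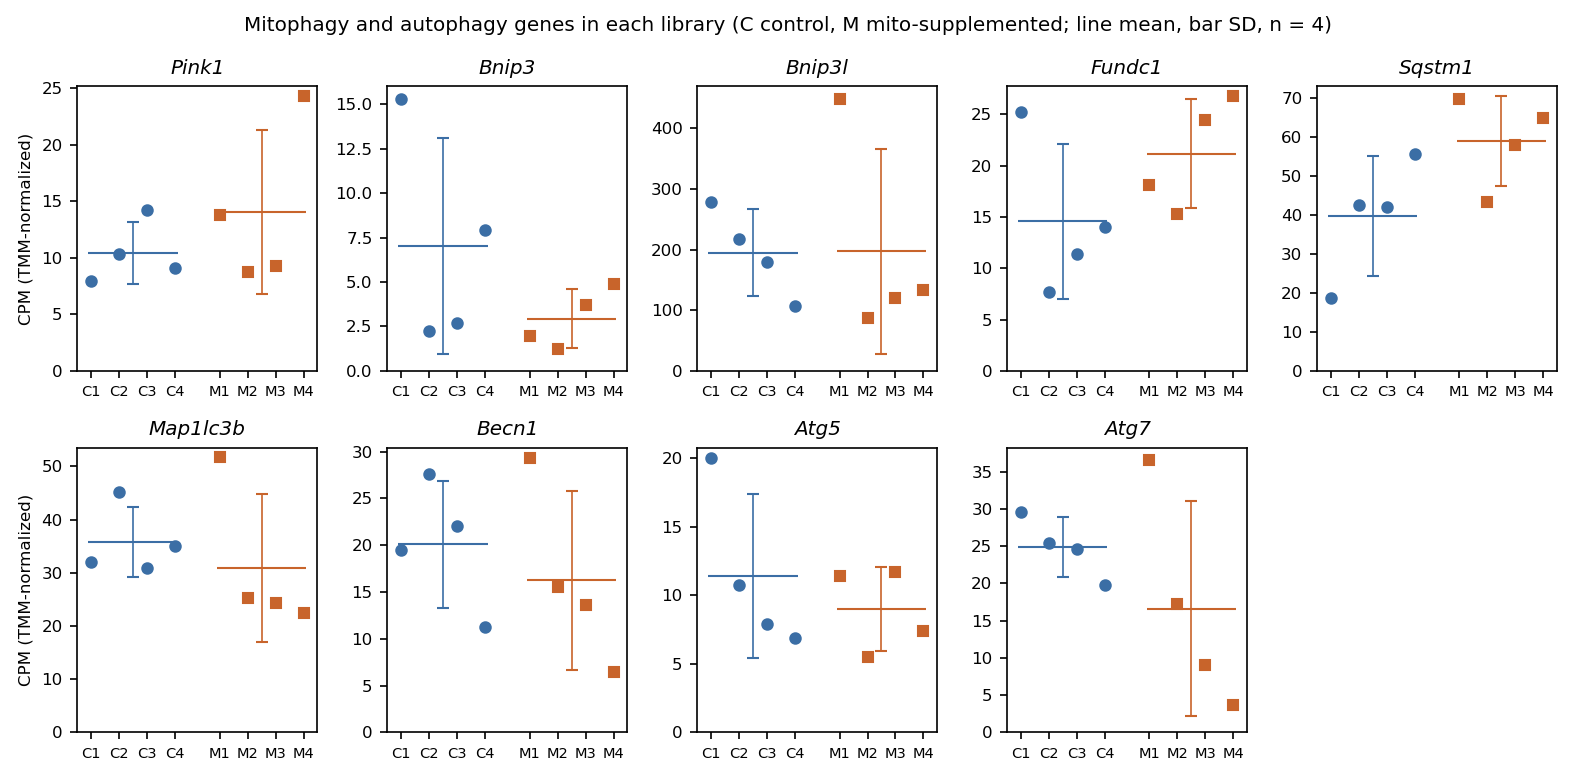
TMM-normalized CPM of each gene in control (C1 to C4, circles) and mito-supplemented (M1 to M4, squares) replicates, with the mean (line) and SD (bar, n = 4) of each group. The groups overlap in all 9 panels, and mito-supplemented replicate 1 holds the highest value of 5 genes.

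Pink1, the kinase that marks damaged mitochondria (chromosome 4, 138313409 to 138326307 of GRCm38), was at 7.92, 10.4, 14.2 and 9.08 CPM in control replicates 1 to 4 and at 13.8, 8.73, 9.26 and 24.3 CPM in mito-supplemented replicates 1 to 4. Only mito-supplemented replicate 4 lay above all controls. The mean was 10.4 ± 2.75 CPM over controls and 14.0 ± 7.24 CPM over mito-supplemented libraries (SD, n = 4 each), and the log2 fold change was 0.43 with a 95% interval from -0.65 to 1.51 (adjusted p = 0.808), or 0.05 without mito-supplemented replicate 4.

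Among the receptors of the outer membrane, Bnip3l (chromosome 14, 66985239 to 67008877) was the most abundant. It was at 278, 217, 179 and 106 CPM in control replicates and at 449, 86.6, 120 and 134 CPM in mito-supplemented replicates. The highest value was that of mito-supplemented replicate 1, and the other 3 of its group lay below the 3 highest controls. The group means were 195 ± 71.8 and 197 ± 169 CPM (SD, n = 4 each), with a log2 fold change of 0.02 (95% interval -1.19 to 1.22, adjusted p = 0.994). Without mito-supplemented replicate 1 it was -0.75, with an adjusted p of 0.425. The summed level of red cell markers was 7990.2 CPM in mito-supplemented replicate 1 and 31.7 CPM in control replicate 1, which had the second highest Bnip3l. Control replicates 2 and 3 came next in Bnip3l, and their summed red cell markers were at 7970.3 and 5212.8 CPM. The part of red cells in the level of Bnip3l was not tested.

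Bnip3, the related receptor known to be induced by hypoxia (chromosome 7, 138890836 to 138909519), was at 15.3, 2.22, 2.69 and 7.89 CPM in control replicates and at 1.94, 1.25, 3.72 and 4.87 CPM in mito-supplemented replicates. Control replicates 1 and 4 were high and control replicates 2 and 3 lay among the mito-supplemented values. Its log2 fold change was -1.25, the lowest of the 9 genes (95% interval -3.05 to 0.55, adjusted p = 0.711), and -0.49 when control replicate 1, where oocyte markers were highest, was left out. An antisense gene, Gm45507, covers 22.3% of the exon bases of Bnip3, and the strand setting of the counting is not given in the sources used here. The E-box shown above lies in the promoter of this gene.

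Per kilobase of exon, the level of Bnip3l was 10.7, 57.4, 39.2 and 7.89 times that of Bnip3 in control replicates 1 to 4 and 136, 40.8, 18.9 and 16.1 times in mito-supplemented replicates 1 to 4. The ratio was thus high in the 3 red cell-rich libraries, and also in mito-supplemented replicate 2. This ratio was chosen after the values were seen. Other genes of the hypoxia response, Hif1a among them, were listed beside Bnip3. Fitted levels in mito-supplemented samples were above control for 11 of these 14 and below for 3, with a median log2 fold change of 0.56. An adjusted p under 0.05 was reached by 0 of the 14, where 0 of all genes reached it. With single libraries left out 9 to 13 were above, with medians from 0.45 to 0.87, and scaled by size only the median was 0.94. Their summed level was 324, 227, 289 and 331 CPM in control replicates and 365, 435, 429 and 457 CPM in mito-supplemented replicates. For 2 of the 14, Bhlhe40 and Vegfa, the groups did not overlap, both higher, beside 5.03% of all genes. Bhlhe40, a transcriptional repressor, was at 6.40, 1.90, 18.1 and 5.33 CPM in control replicates and at 23.8, 24.6, 23.3 and 42.0 CPM in mito-supplemented replicates (log2 fold change 1.83, adjusted p = 0.626). Vegfa, a vessel growth factor named after its values were seen, had a log2 fold change of 1.30 (adjusted p = 0.626). The summed levels of stroma, surface epithelium and endothelial markers were also higher on average in mito-supplemented samples, and their part in this was not tested. Hif1a, the most abundant, was at 113 ± 54.8 CPM over controls and 156 ± 45.3 CPM over mito-supplemented libraries (SD, n = 4 each), and the groups overlapped.

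Fundc1, on the X chromosome (17556564 to 17572325), was at 25.2, 7.69, 11.4 and 14.0 CPM in control replicates and at 18.1, 15.3, 24.4 and 26.8 CPM in mito-supplemented replicates. All mito-supplemented libraries lay above control replicates 2 to 4, and control replicate 1 lay within their range. Its log2 fold change was 0.54 (95% interval -0.49 to 1.56, adjusted p = 0.760). Without control replicate 1 it was 0.96 and the groups no longer overlapped, as for 8.88% of the genes then tested. It fell to 0.33 without control replicate 2 and to 0.20 without the 3 red cell-rich libraries.

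Sqstm1, the adaptor between ubiquitin and the forming membrane (chromosome 11, 50199366 to 50210827), had the highest log2 fold change of the 9 genes in the main fit, though not in every alternative. It was at 18.8, 42.5, 42.2 and 55.7 CPM in control replicates and at 69.8, 43.4, 57.9 and 65.1 CPM in mito-supplemented replicates. Only mito-supplemented replicate 2 lay below the highest control, and control replicate 1 was far below the others. Mean levels were 39.8 ± 15.3 and 59.1 ± 11.5 CPM (SD, n = 4 each). The corresponding log2 fold change was 0.57 (standard error, SE, 0.39, adjusted p = 0.716), 0.36 without control replicate 1 and 0.79 without control replicate 4. It was 1.03 when libraries were scaled by size only, which lowers control replicate 4, the highest control. The part of that library in this value was not tested. The groups no longer overlapped without control replicate 4, as for 13.7% of the genes then tested, or without mito-supplemented replicate 2, as for 5.72%. Exons of Mrnip on the opposite strand cover 17.3% of the exon bases of Sqstm1, so that part of its counts is uncertain.

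Map1lc3b encodes LC3B, the ATG8 protein that is attached to the membrane and binds the receptors (chromosome 8, 121590361 to 121598760). It was at 32.1, 45.2, 30.8 and 35.1 CPM in control replicates and at 51.8, 25.2, 24.3 and 22.5 CPM in mito-supplemented replicates. Mito-supplemented replicates 2 to 4 lay below every control, while mito-supplemented replicate 1 lay above every control. Between the groups, the log2 fold change was -0.21 (SE 0.38, adjusted p = 0.873), 0.07 when libraries were scaled by size only, -0.55 without mito-supplemented replicate 1 and -0.06 when replicate 4 of that group was left out. Relative to the other ATG8 genes, Map1lc3b made up 26.3%, 38.1%, 29.8% and 35.4% of the summed level per kilobase of 5 genes in controls. In mito-supplemented replicates it made up 31.9%, 22.5%, 19.2% and 17.2%. These shares depend on the length used, and with the longest transcripts, a choice made after the values were seen, they were 46.6% to 59.2% in controls and 34.0% to 51.4% in mito-supplemented replicates. The other 4 ATG8 genes (Map1lc3a, Gabarap, Gabarapl1 and Gabarapl2) all had fitted levels above control, with a median log2 fold change of 0.39 and 0 past the test, though without mito-supplemented replicate 1 only 2 of the 4 did. Their summed level was 19.6, 18.7, 17.7 and 15.8 CPM in control replicates and 28.4, 21.5, 23.8 and 22.9 CPM in mito-supplemented replicates.

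Becn1 encodes Beclin 1, a subunit of the lipid kinase complex that starts the membrane (chromosome 11, 101285952 to 101302286). It was at 19.4, 27.7, 22.0 and 11.3 CPM in control replicates and at 29.3, 15.5, 13.7 and 6.47 CPM in mito-supplemented replicates. Both the highest and the lowest value were in mito-supplemented libraries, and the log2 fold change was -0.31 (SE 0.52, adjusted p = 0.865), or -0.74 when mito-supplemented replicate 1 was left out and -0.02 when replicate 4 of that group was. Exons of Cntd1 on the opposite strand cover 43.9% of the exon bases of Becn1, the largest overlap among the 9 genes.

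Atg5 and Atg7 act in the conjugation steps, ATG7 as the activating enzyme and ATG5 as a part of the complex that attaches ATG8 proteins to lipid. Atg5 (chromosome 10, 44268358 to 44364291) was at 20.1, 10.8, 7.89 and 6.91 CPM in control replicates and at 11.4, 5.47, 11.7 and 7.37 CPM in mito-supplemented replicates. Control replicate 1 was the highest, and the other 7 libraries lay between 5.47 and 11.7 CPM. The log2 fold change was -0.35 (SE 0.52, adjusted p = 0.851) and changed to 0.10 without control replicate 1. Atg7 (chromosome 6, 114643097 to 114860614) was at 29.6, 25.4, 24.6 and 19.7 CPM in control replicates and at 36.5, 17.2, 9.07 and 3.69 CPM in mito-supplemented replicates. Mito-supplemented replicate 1 was the highest of the 8 libraries, and the other 3 of its group were the lowest. Mean levels were 24.9 ± 4.04 and 16.6 ± 14.4 CPM (SD, n = 4 each). This is a log2 fold change of -0.58 (SE 0.62, adjusted p = 0.798), -1.29 without mito-supplemented replicate 1 (adjusted p = 0.353) and -0.22 without mito-supplemented replicate 4 (adjusted p = 0.974). Over 22 alternatives its adjusted p ranged from 0.0858 to 0.974.

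**Figure D3:**
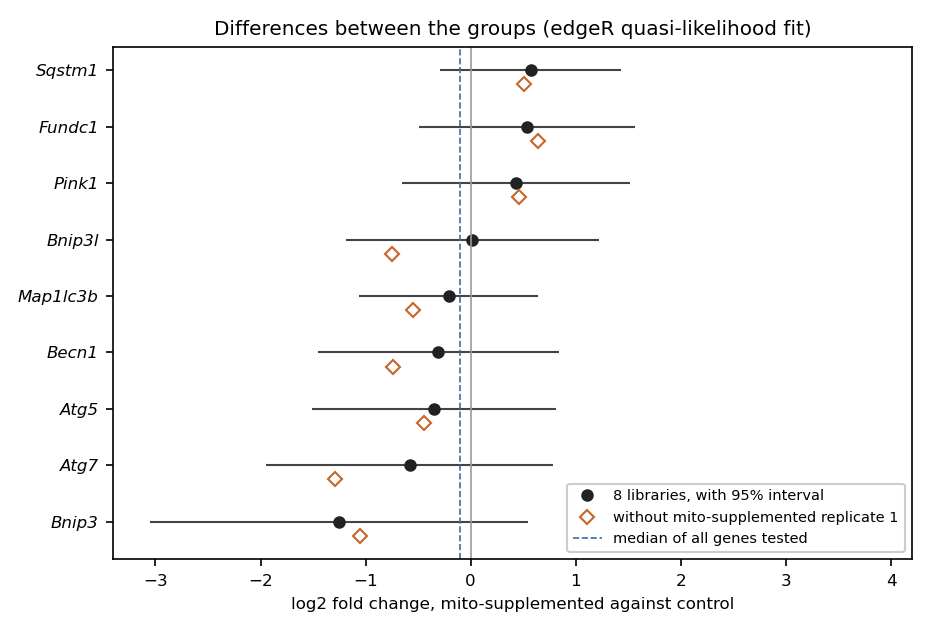
Log2 fold change of each gene, mito-supplemented against control, with its 95% interval (filled circles, 4 libraries against 4) and without mito-supplemented replicate 1 (open diamonds), and the median of all genes tested (dashed line). All 9 intervals include 0, and Bnip3l, Atg7, Becn1 and Map1lc3b move furthest to the left without that library.

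Mito-supplemented replicate 1 was the library on which several of these values turned. It had the highest value of the 8 libraries for 5 of the 9 genes (Bnip3l, Sqstm1, Map1lc3b, Becn1 and Atg7), while mito-supplemented replicate 4 had the lowest for 3 (Map1lc3b, Becn1 and Atg7) and the highest for 2 (Pink1 and Fundc1). Mito-supplemented replicate 2 had the lowest for 3 (Bnip3, Bnip3l and Atg5). Without mito-supplemented replicate 1, the groups did not overlap for Map1lc3b and Atg7, both lower in mito-supplemented samples, and 13.5% of 14251 genes tested then had groups that did not overlap. The median log2 fold change of the 9 was then -0.55, against -0.10 for all genes. With the 3 red cell-rich libraries left out, which leaves 2 controls and 3 mito-supplemented samples, Bnip3, Map1lc3b and Atg7 did not overlap, all lower, against 29.6% of 14568 genes. In neither case did any of the 9 pass an adjusted p of 0.05 in the quasi-likelihood test, where 0 of all genes tested did.

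Levels of different genes were compared per kilobase of exon. Bnip3l was first in each of the 8 libraries, at 50.8 ± 31.1 CPM per kilobase (SD, n = 8), and its lowest value, 22.5, lay above the highest of Sqstm1, 20.8. Sqstm1 followed at 14.7 ± 4.84 and Fundc1 at 7.59 ± 2.97 CPM per kilobase. Pink1 at 4.57 ± 2.03, Map1lc3b at 4.44 ± 1.39 and Atg5 at 4.34 ± 1.95 had means closer together than their SDs. So did Atg7 at 2.98 ± 1.54, Becn1 at 2.57 ± 1.13 and Bnip3 at 2.20 ± 2.06 CPM per kilobase. These SDs are over libraries, and differences between genes within each library were not tested. By total CPM, Bnip3l stood at the 96.8th percentile of the genes tested and Bnip3, the lowest of the 9, at the 25.8th. The length used matters most for Map1lc3b, which came after Bnip3l and Sqstm1, at 12.7 CPM per kilobase, when the longest protein-coding transcript was used in place of all annotated exons, a choice made after the values were seen.

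**Figure D4:**
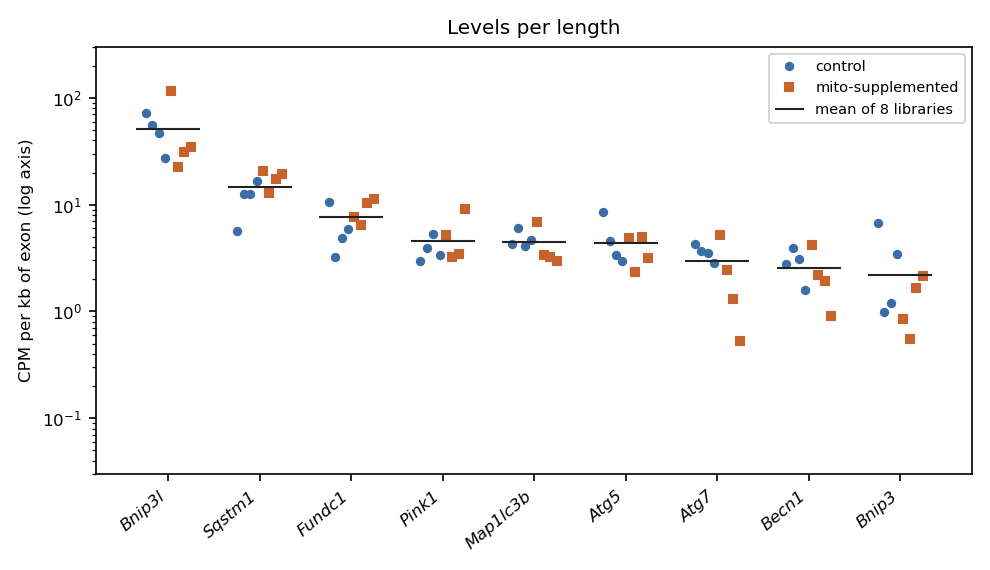
CPM per kilobase of exon of the 9 genes in control (circles) and mito-supplemented (squares) libraries on a log axis, with the mean of the 8 libraries (line). Bnip3l lies above the other 8 genes, and the values of most neighbours in the order overlap.

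The other genes of the pathway were described from a list of 103 in 9 roles, of which 101 were tested. Their fitted levels were higher in mito-supplemented samples for 36 and lower for 65, with a median log2 fold change of -0.25. Of all genes tested, 6225 were higher and 7648 lower. Between 29 and 42 of the 101 were higher when single libraries were left out, with medians from -0.42 to -0.11. The counts by role below then changed by up to 3 genes. When libraries were scaled by size only, which moved the median of all genes from -0.10 to 0.17, the split was 50 higher and 51 lower, and the medians for cargo receptors, lysosome and TFEB family, and mTORC1 and AMPK became positive. In the quasi-likelihood test and in the likelihood ratio test, 0 of the 101 passed an adjusted p of 0.05. At an unadjusted p under 0.05 there were 2 higher (Tfeb and Atg16l2) and 4 lower (Park7, Epg5, Rptor and Tsc1), which is 6 of 101 beside the 7.71% of all genes. The groups did not overlap for 2 genes that were higher (Tfeb and Atg16l2) and 2 that were lower (Rptor and Tsc1), beside 5.03% of all genes. With libraries scaled by size only, they did not overlap for 3 higher genes and 0 lower ones, beside 6.83% of all genes. Rptor is named after its values were seen.

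Tfeb (chromosome 17, 47737030 to 47792419) was at 0.656, 1.90, 2.69 and 1.58 CPM in control replicates and at 5.09, 11.6, 4.85 and 22.7 CPM in mito-supplemented replicates. The groups did not overlap, with all mito-supplemented values the higher ones. The log2 fold change was 2.69 (SE 0.75), with an adjusted p of 0.544 in the quasi-likelihood test and 0.0925 in the likelihood ratio test. In DESeq2 the adjusted p was 0.0304, the likelihood ratio test without mito-supplemented replicate 1 also called it, and in other alternatives the adjusted p ran up to 0.971. The log2 fold change was 2.09 without mito-supplemented replicate 4 and up to 3.01 with another library left out. Lamp1, a lysosomal membrane protein and the gene of this role with the highest level per kilobase, was at 568 CPM in control replicate 1 and between 145 and 214 CPM in the other 7 libraries. Of the 16 genes for lysosome and TFEB family, 7 were higher and 9 lower, with a median of -0.20 (from -0.46 to -0.08 with 1 library left out).

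The growth-regulating kinase mTORC1 restrains autophagy and AMPK promotes it. Of their 11 genes 3 were higher and 8 lower, with a median of -0.15 (from -0.42 to -0.08 with 1 library left out). Tsc1, an inhibitor of mTORC1 (chromosome 2, 28641228 to 28691167), was at 116, 116, 92.2 and 79.9 CPM in control replicates and at 61.8, 59.9, 52.0 and 66.4 CPM in mito-supplemented replicates. All mito-supplemented libraries lay below all controls, with a log2 fold change of -0.75 (SE 0.29, adjusted p = 0.626). When libraries were scaled by size only, the groups overlapped for Tsc1, with a log2 fold change of -0.53 (adjusted p = 0.838). That scaling lowers control replicate 4, the lowest control for Tsc1, and its part in the overlap was not tested. Rptor, the scaffold subunit of mTORC1 itself, was at 68.4, 60.5, 55.9 and 75.0 CPM in control replicates and at 52.0, 44.0, 27.1 and 21.1 CPM in mito-supplemented replicates, with a log2 fold change of -0.85 (adjusted p = 0.636). Thus an inhibitor and a subunit of the same kinase both had lower fitted levels, but neither was called in the quasi-likelihood test. When libraries were scaled by size only, the groups overlapped for Rptor as well. With that scaling 6 of the 11 genes of this role were higher and 5 lower, with a median of 0.02. Prkab1, an AMPK subunit, was high in the 3 red cell-rich libraries, at 87.4, 69.4 and 73.6 CPM, against 4.10 to 19.6 CPM in the other 5.

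In initiation, 3 of 5 genes were higher, 2 to 4 with single libraries left out and 5 when scaled by size only. The median log2 fold change of this role was 0.16, and -0.18 without mito-supplemented replicate 1. Ulk1 and Ulk2, the starting kinases, had log2 fold changes of 0.16 and 0.30, the latter between 0.08 and 0.58 with 1 library left out. In nucleation, 2 of 9 were higher. Atg14, the subunit that places the lipid kinase on the membrane, was at 29.4 ± 11.8 CPM over controls and 17.1 ± 8.56 CPM over mito-supplemented libraries (SD, n = 4 each). Vmp1, a membrane protein of the endoplasmic reticulum, had a log2 fold change of 0.30. In membrane supply and conjugation, 4 of 16 genes tested were higher (7 without control replicate 2), among them Atg16l2, a relative of the ATG5 partner ATG16L1. Atg16l2 was at 2.42, 3.33, 3.09 and 0.789 CPM in control replicates and at 7.81, 5.61, 7.71 and 11.5 CPM in mito-supplemented replicates, without overlap, with a log2 fold change of 1.74 (SE 0.64, adjusted p = 0.626). Wipi1, which binds the lipid of the forming membrane, was between 8.33 and 75.0 CPM in controls alone.

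Of the other cargo receptors, 4 of 12 tested were higher, and Calcoco2 had 0 counts in all 8 libraries. Optn, a ubiquitin-binding mitophagy receptor, was at 36.1, 184, 101 and 36.7 CPM in control replicates and at 90.7, 17.7, 16.7 and 13.4 CPM in mito-supplemented replicates. The highest value of each group was thus in a red cell-rich library, and in the other 5 libraries both controls lay above all 3 mito-supplemented samples. Its log2 fold change was -1.37 (SE 0.76, adjusted p = 0.681), and it was -0.74 when control replicate 2 was left out and -2.48 when mito-supplemented replicate 1 was. Tax1bp1, the most abundant receptor per kilobase, was at 271 ± 40.8 CPM over controls and 259 ± 103 CPM over mito-supplemented libraries (SD, n = 4 each).

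Of the genes that regulate the PINK1 pathway, 5 of 15 were higher, with a median log2 fold change of -0.37. With single libraries left out 3 to 6 were, with medians from -0.41 to -0.15, and scaled by size only the median was -0.03. Park7, which encodes the redox-sensitive protein DJ-1, was at 24.3, 12.4, 13.3 and 49.3 CPM in control replicates and at 9.75, 14.9, 10.8 and 8.27 CPM in mito-supplemented replicates. Its log2 fold change of -1.18 (SE 0.52, adjusted p = 0.645) was -0.59 without control replicate 4, the library with the fewest counts outside rRNA. Usp8, a deubiquitinase, was at 164 ± 57.4 and 147 ± 14.2 CPM (SD, n = 4 each). Of the genes for fusion with the lysosome, 4 of 13 were higher. Epg5, a tether of that fusion listed as 5430411K18Rik, was at 161, 152, 95.1 and 77.6 CPM in control replicates and at 89.7, 51.5, 36.0 and 55.3 CPM in mito-supplemented replicates. Only mito-supplemented replicate 1 reached into the range of the controls, and the log2 fold change was -1.06 (SE 0.39, adjusted p = 0.626). Rab7, the GTPase of late endosomes, was at 99.7 ± 24.5 and 118 ± 23.7 CPM (SD, n = 4 each).

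**Figure D5:**
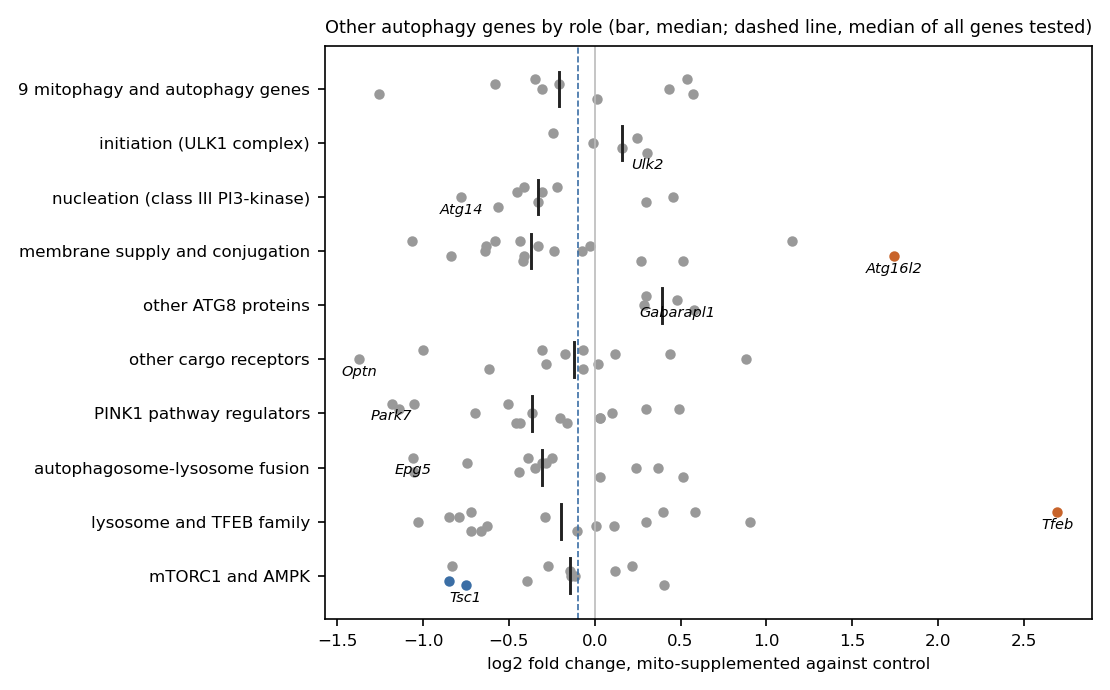
Log2 fold change, mito-supplemented against control, of each of the 9 genes and of the 101 other autophagy genes tested, by role (1 point per gene, with the median of each role as a bar and that of all genes tested as a dashed line). Orange points are genes whose mito-supplemented libraries all lay above the controls, blue points the reverse, and the name is that of the gene with the lowest p in each role; most roles have medians below 0, while initiation and the other ATG8 proteins have medians above it.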

How the data were processed

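Reads were trimmed with Trim Galore 0.4.4, mapped to GRCm38 (mm10) with STAR 2.5.3a and counted on exons with featureCounts by the authors. The deposited values are raw counts per gene symbol. The annotation release and the strand setting are not given in the sources used here. The members and gene lists were chosen with earlier results of these data known. One gene of the planned list is not reported here, and the counts and medians are those of the other 9.

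Counts were analysed here in R 4.3.3. Normalization (TMM), the default expression filter and the quasi-likelihood test were those of edgeR 4.0.16, and p-values were adjusted over all genes tested. The likelihood ratio test, DESeq2 1.42.0 and limma 3.58.1 served as alternatives. CPM per kilobase uses the union of GENCODE M21 exons. Of 201 listed genes, 198 were found, 9 by an older symbol. In each role of the other autophagy genes, and among the hypoxia genes, those past an adjusted p of 0.05 were to be named, and otherwise the gene with the lowest p and the one with the highest level per kilobase. The scripts were tested on simulated counts. The paper counts the samples as 4 mice in each group, and p-values measure the spread between these samples. A further control sample was excluded by the authors as an outlier after quality checks. Samples sharing the first part of their label code were also summed. What this part marks is not given in the sources used here. Each group holds 2 such codes, and mito-supplemented replicate 4 is the only sample of its code.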

Additional observations from a re-analysis of the deposited data

Results flagged for a closer look

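In 6 of 66 groups of 4 libraries examined, 1 library lay far from the other 3 of its group, where chance gives about 3.3.

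Map1lc3b was at 5.70 log2 CPM in mito-supplemented replicate 1 and between 4.50 and 4.66 in the other 3 mito-supplemented libraries. Optn was at 6.50 log2 CPM in the same library and between 3.76 and 4.16 in the other 3. The red cell share of counts outside rRNA genes was 1.04% in that library, and 0.0264%, 0.00899% and 0.00830% in mito-supplemented replicates 2 to 4. These 3 values come from 1 library, and how they are related was not tested.

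Atg14 was at 2.26 log2 CPM in mito-supplemented replicate 4 and between 4.22 and 4.55 in the other 3 of its group. In the same library Bhlhe40 was at 5.40 log2 CPM, with 4.55 to 4.63 in the other 3. Among the TMM factors of the mito-supplemented libraries, that of replicate 3 was 1.37 and the others lay between 1.05 and 1.09. The factors of control replicates 1 to 4 were 1.39, 0.909, 0.962 and 0.489, which spread more widely.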

How the results depend on the processing

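The number of the 9 genes past an adjusted p of 0.05 was 0 in each alternative run. The number of all genes past it was 58 by the likelihood ratio test, 141 by DESeq2, 2913 by limma-voom when samples were given quality weights, and 0 in the other alternatives. With single libraries left out, the count of the likelihood ratio test lay between 13 (mito-supplemented replicate 2 left out) and 387 (mito-supplemented replicate 1 left out). It was 175 without the 3 red cell-rich libraries, choices made after seeing the data. Of the other 101 autophagy genes, Tfeb was called by DESeq2, and Tfeb and Optn by the likelihood ratio test without mito-supplemented replicate 1. Limma-voom with sample quality weights called 17 of the 101, 4 higher and 13 lower, beside 21% of all genes. Among the lower ones were Epg5 (adjusted p = 0.0186), Tsc1 (adjusted p = 0.0236) and Optn (adjusted p = 0.0143).

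The median log2 fold change of the 9 genes was 0.07 with library size only, which moved the median of all genes to 0.17, and lay between -0.55 and 0.10 when single libraries were left out. The number of the 9 without overlap between groups was 1 (Sqstm1) with library size only, where 6.83% of genes tested had none, and 4 with counts summed by label prefix, where 44.4% did. It lay between 0 and 2 when single libraries were left out, and was 3 without the red cell-rich libraries.

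Bnip3l changed sign to -0.0002 with DESeq2 and with relative log expression factors, -0.27 with limma-voom, -0.62 with its sample quality weights, -0.22 with the replicate block, -0.14 with counts summed by prefix, -0.11 with a red cell covariate and -0.73 without the red cell-rich libraries. With a library left out it ran from -0.75 to 0.26, and was -0.02 and -0.17 without control replicates 3 and 4. Pink1 changed to -0.32 with sample quality weights, Map1lc3b to 0.073 with library size only and Atg5 to 0.10 without control replicate 1, with -0.50 the lowest when any other single library was left out. The cause was not tested.

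Libraries with the same replicate number did not deviate together, with correlations of -0.24, -0.19, -0.33 and 0.22, and the numbers were not taken as pairs. With the replicate block, 0 genes were called. The red cell share differed by -0.25 percentage points, and between -0.51 and -0.02 when single libraries were left out.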
